A study of Mus musculus with 6 samples.

Results

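The comparison described here is the 12 h against the 0 h sample of mouse SYF cells carrying Src D386N/Y527F, 2 of the 6 arrays of the study. SYF cells are embryonic fibroblasts that lack the Src, Yes and Fyn kinases, and each line was stably transfected with a Src construct and grown in 10% serum with hygromycin. The 12 h sample had been starved of serum overnight and then given 5 mM imidazole for 12 h, and the 0 h sample had been starved overnight without imidazole. The third array of the line was taken after 1 h in imidazole. The other line, Src R388A/Y527F, was sampled at the same 3 times. Y527F, present in both lines, removes the inhibitory tail tyrosine of Src. In R388A an arginine of the catalytic loop is replaced, and imidazole restores activity to that kinase. In D386N the catalytic aspartate is replaced, and the kinase is not rescued by imidazole. The differences below are therefore between cells whose introduced kinase imidazole does not restore. Each line is a separately transfected population, and no untreated 12 h sample is among the arrays analysed here, so imidazole and the added 12 h without serum cannot be told apart. Nothing states that the samples came from separate cultures.

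Lysosomes break down proteins, lipids and sugars with acid hydrolases in a lumen that a V-type ATPase keeps acidic. Their genes are switched on together by the TFE transcription factors (TFEB, TFE3 and MITF), which bind E-boxes of the CLEAR type and enter the nucleus when the Rag GTPases and folliculin no longer hold them at the lysosome surface. Cells also match amino acid synthesis and uptake to supply through the transcription factor ATF4, which binds sites made of a C/EBP and an ATF part. Both programmes respond to nutrients and to mTORC1.

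Each group had 1 array, so the differences have no replicate check, no p-value and no error beyond the number of arrays. The arrays were summarised by the authors in 2 ways, as the GCOS signal and as a second summary, and a gene was said to rise or fall only where it differed at least 1.5-fold in the same direction in both. The summaries read the same hybridisations and are not replicates. Values below a floor, 20.4 in the GCOS signal and 11.3 in the second summary, were set to it, and a change against an array at the floor is a lower bound. Log2 changes below are 12 h over 0 h, the GCOS value first and the second summary after it. The arrays were close in the measures below, but the 0 h array of D386N/Y527F stood at 1 end of several. Its median GCOS signal was 29.6, against 31.3 to 33.7 on the other arrays and 33.5 at 12 h. Its mean in the second summary, after trimming 2% at each end, was 178.1, against 167.3 to 172.0 on the others. The effect of this on the results was not tested. Between 12207 and 12712 of 18193 genes lay above the GCOS floor on an array, the 12 h array of D386N/Y527F holding 12636 and its 0 h array 12207. Probe sets for the 3′ end over those for the 5′ end gave 0.76 to 0.82 for Gapdh and 1.11 to 1.18 for beta-actin. All 12 fibroblast markers were above the floor on both arrays, with a summed GCOS signal of 33105.7 at 12 h and 31347.9 at 0 h. Of 10 haematopoietic markers, 5 were above the floor at 12 h and 4 at 0 h, with sums of 454.5 and 392.4. The summed signal of 10 muscle markers was 305.1 at 12 h and 363.7 at 0 h, and that of 6 adipocyte markers was 111.1 and 96.6. The sums of 7 endothelial markers were 129.3 at 12 h and 84.7 at 0 h, with 2 and 1 of them above the floor and none measured in both summaries. Those of 9 epithelial markers were 205.3 and 193.7, and those of 8 neural and glial markers 384.7 and 353.2. The part of these cell types in the results was not tested. In a bulk sample fewer cells of a type and less RNA per cell cannot be told apart.

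The introduced gene and the deleted kinases were read first. The Src probe set used for the gene gave GCOS signals of 58.4, 72.7 and 67.9 at 0, 1 and 12 h in D386N/Y527F, and the other gave 36.0, 107.3 and 81.1. In the second summary they gave 38.9, 42.8 and 40.2, and 28.6, 24.2 and 26.6, so neither passed the size rule. Fyn gave 185.3, 209.0 and 238.4, and the brightest Yes1 probe set 219.4, 208.4 and 180.6, although SYF cells lack both proteins. Whether these probes read the introduced Src or lie in the deleted parts is not known, so they do not check the labels.

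At 12 h 110 genes rose and 60 fell, of 11098 genes measured in both summaries. That is 0.991% and 0.541% of the genes. Read alone, the GCOS signal placed 7.89% of its genes past 1.5-fold upwards and 3.41% downwards, and the second summary 1.37% upwards and 1.71% downwards. At least 2-fold in both summaries, 14 genes rose (0.126%) and 3 fell (0.027%). On the higher side the lists with 4 or more members past 1.5-fold were the lysosomal hydrolases, matrix glycoproteins and amino sugar enzymes, and on the lower side only the ATF4 list of amino acid synthesis and uptake had as many. The median of the smaller fold was 1.63 for the genes that rose and 1.58, as the inverse ratio, for those that fell. Over all genes the median log2 change was 0.01 and -0.05. By any amount, 31.7% of genes were higher in both summaries and 41.0% lower in both, and these are the shares to set beside the counts of list members below.

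**Figure D1:**
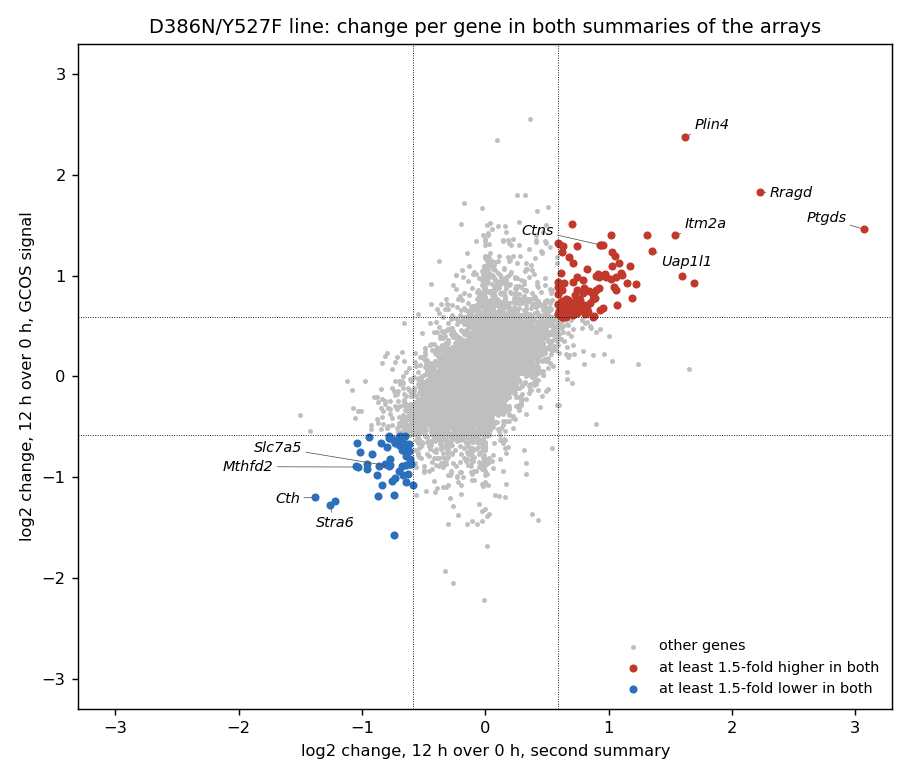
Log2 change of each gene at 12 h over 0 h in the D386N/Y527F line, with the second summary on the horizontal axis and the GCOS signal on the vertical axis. Each point is 1 gene, dotted lines mark 1.5-fold, red marks the 110 genes higher and blue the 60 genes lower in both summaries, and grey points are the others, including genes measured in 1 summary past the lines. Rragd and Ptgds lie farthest to the right and Cth farthest to the left among the coloured points.

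Rragd, which encodes the RagD GTPase that recruits mTORC1 and TFE factors to the lysosome, ranked first among the genes that rose by the smaller of its 2 changes. Its GCOS signal was 16.2, 24.0 and 72.6 at 0, 1 and 12 h, and its second summary 14.6, 19.8 and 68.4. The 12 h array stood apart from both earlier ones. The 0 h GCOS signal was under the floor, so the log2 change of 1.83 is a lower bound, and that of the second summary was 2.23. A second Rragd probe set gave 20.6 at 12 h, just above the floor, against 10.8 at 0 h, under it. Its change of 0.01 in the GCOS signal is set by the floor, so the rise rests on 1 probe set. Flcn, encoding folliculin, the activator of RagC and RagD, also rose, to 443.8 at 12 h against 270.2 at 0 h (0.72 and 0.73). Fnip2, a partner of folliculin, reached 487.8 at 12 h against 313.5 at 0 h in the second summary (0.68 and 0.64). Rragc, encoding RagC, gave 1446.2 against 1034.5 (0.48 and 0.55), and Lamtor1, the membrane anchor of the Ragulator complex, 562.0 against 398.2 (0.50 and 0.55), both short of 1.5-fold. The list of Rag GTPases, folliculin and TFE factors as a whole held 3 genes that rose and none that fell among 27 measured. Of the 27, 13 were higher and 7 lower by any amount in both summaries, and the medians were 0.21 and -0.01, on either side of 0. The genes past 1.5-fold were therefore single members of a list that did not shift as a whole in both summaries.

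The acid hydrolases and their activators were the longest list of lysosomal genes, with 50 genes, 46 of them on the array and 41 measured. Of these 8 rose and none fell, and 28 were higher and 3 lower by any amount in both summaries, with medians of 0.19 and 0.20. Manba, the beta-mannosidase of glycoprotein breakdown, had GCOS signals of 86.6, 97.5 and 172.6 at 0, 1 and 12 h (0.99 and 0.98). Ctsa, encoding cathepsin A, the protective protein of the sialidase complex, had 1175.0, 1195.6 and 2129.2 (0.86 and 0.90). Hexa, the alpha subunit of beta-hexosaminidase, had 890.6, 904.1 and 1573.5 (0.82 and 0.87). In all 3 genes the 0 h and 1 h signals lay close together and the 12 h signal lay well above both. Tpp1, a tripeptidyl peptidase, had 1257.3, 1273.4 and 2162.8 (0.78 and 0.89), with both of its probe sets moving alike. Neu1, the lysosomal sialidase, had 179.0, 171.5 and 300.2 (0.75 and 0.73), but its other probe sets, both dim, gave 0.12 and 0.00, and 0.13 and 0.07, so its rise rests on 1 of 3 probe sets. Gaa, the acid alpha-glucosidase of glycogen breakdown, had 739.9, 818.0 and 1174.1 (0.67 and 0.74). Arsa, encoding arylsulfatase A, which removes sulfate from sulfatides, had 913.9, 903.6 and 1450.5 (0.67 and 0.82). The eighth, Ctsf, encoding the cysteine protease cathepsin F, was dim and unlike the others in its timing. Its GCOS signal was 10.5, 42.0 and 41.6, so the 0 h array was under the floor and 1 h and 12 h did not differ, while the second summary gave 30.8, 27.2 and 47.1.

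Cystinosin, the cystine exporter of the lysosome encoded by Ctns, was the member of the membrane and transport list that rose. Its GCOS signal was 99.8, 118.8 and 245.7 at 0, 1 and 12 h, and its second summary 156.0, 154.3 and 301.8 (1.3 and 0.95). The rest of this list moved by less and nearly all in the same direction. Of 26 genes measured out of 31, 23 were higher in both summaries and none lower in both, with medians of 0.41 and 0.40. Igf2r, the receptor that carries mannose-6-phosphate tagged hydrolases to the lysosome, gave 524.2 at 12 h against 356.5 at 0 h (0.56 and 0.63). Npc1, a cholesterol exporter, gave 141.0 against 93.4 (0.59 and 0.51), and Pip4p1, a phosphoinositide phosphatase, 777.0 against 541.7 (0.52 and 0.59). The most abundant member, Lamp1, a coat glycoprotein of the lysosomal membrane, gave 5349.5 at 12 h against 3902.0 at 0 h (0.46 and 0.46). None of these 4 genes reached 1.5-fold in both summaries.

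Subunits of the proton pump also stood higher at 12 h. Of 15 measured genes out of 17, 2 rose, and 12 were higher and 1 lower by any amount in both summaries, with medians of 0.37 and 0.39. Atp6v0b, a subunit of the membrane ring of the pump, had GCOS signals of 825.2, 864.8 and 1455.1 at 0, 1 and 12 h (0.82 and 0.87). Atp6v0d1, which links the ring to the stalk, had 1357.1, 1320.5 and 2066.7 (0.61 and 0.71). In both genes the 1 h array stood with the 0 h array. Atp6v1d, a stalk subunit, gave 934.6 at 12 h against 668.5 at 0 h (0.48 and 0.61), and Atp6v1h, a regulatory subunit, 577.7 against 390.2 (0.57 and 0.39). Over the 3 lysosomal lists together, 11 of 82 measured genes rose, or 13.4%, against 0.991% of all genes, and none fell. The lists were chosen with earlier results of these data known, so this share is no test.

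**Figure D2:**
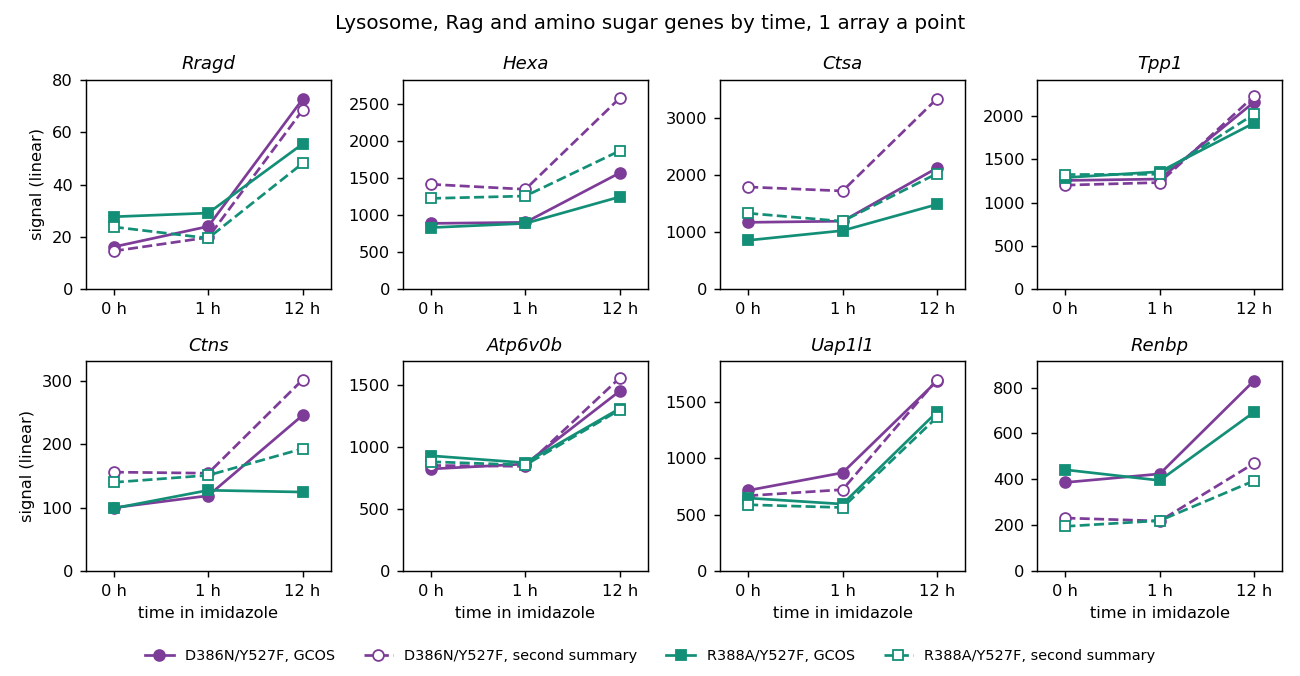
Signal on a linear scale at 0, 1 and 12 h for 8 genes of the lysosome, the Rag complex and amino sugar breakdown, with the times evenly spaced. Purple circles are D386N/Y527F and green squares R388A/Y527F, solid with filled points for the GCOS signal and dashed with open points for the second summary, and each point is 1 array. In the D386N/Y527F line each 12 h point lies above the 0 h and 1 h points of the same summary.

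The promoters of the lysosomal, Rag and amino sugar lists were searched for the core of the CLEAR element, the 7 letters TCACGTG on either strand, in the 250 bases before the transcription start. The sequences are those of RefSeq on GRCm38.p6. The letters were present for 968 of all 27025 genes, or 3.58%. They were present for 10 of 40 hydrolase genes matched (25.0%), 9 of 23 membrane and transport genes (39.13%), 2 of 10 proton pump genes (20%), 5 of 26 genes of the Rag and TFE list (19.23%) and 1 of 12 amino sugar genes (8.33%). Among the genes of these 5 lists that rose, 5 of 16 matched held them (31.25%), against 27 of 111 genes of the 5 lists together (24.32%). A match is only a match of letters, and binding was not measured. The 5 stretches below, each of 100 bases and written 5′ to 3′ on the strand of the gene, are shown because these are the genes of the 5 lists that both rose and hold the letters, with the matches in capitals. The table has 2 promoters for Ctsa, and the one without a match is not shown. Overlapping matches of both strands, as in TCACGTGA, were counted as 1 site. Atp6v0b holds 2 sites and Amdhd2, described next, holds 3. Atp6v0b lies at chr4:117887330-117887429 on the minus strand, Amdhd2 at chr17:24163734-24163833 on the minus strand, Arsa at chr15:89477425-89477524 on the minus strand, Ctsa at chr2:164833673-164833772 on the plus strand and Gaa at chr11:119267775-119267874 on the plus strand. The stretch of Gaa runs from base -188 to base -89 and the others from -100 to -1, counted from the start site.
Atp6v0b: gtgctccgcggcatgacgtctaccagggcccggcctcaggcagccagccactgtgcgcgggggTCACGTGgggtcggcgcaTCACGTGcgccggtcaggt
Amdhd2: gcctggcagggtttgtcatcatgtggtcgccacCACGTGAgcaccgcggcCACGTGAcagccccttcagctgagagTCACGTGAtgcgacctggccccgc
Arsa: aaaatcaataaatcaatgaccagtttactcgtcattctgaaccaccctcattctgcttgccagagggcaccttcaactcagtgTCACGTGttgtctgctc
Ctsa: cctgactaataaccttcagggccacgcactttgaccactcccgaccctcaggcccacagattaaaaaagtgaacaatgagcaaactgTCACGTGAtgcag
Gaa: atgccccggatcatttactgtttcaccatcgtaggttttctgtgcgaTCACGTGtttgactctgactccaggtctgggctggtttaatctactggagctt

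Amino sugars are made into UDP-GlcNAc for glycosylation and recovered from broken-down glycans. Of 16 measured genes of hexosamine and amino sugar metabolism, 4 rose and none fell, the highest share among the 14 lists plotted below. Uap1l1, a relative of the enzyme that makes UDP-GlcNAc, had GCOS signals of 713.7, 870.2 and 1682.1 at 0, 1 and 12 h (1.24 and 1.35). Renbp, the N-acylglucosamine epimerase also known as renin-binding protein, had 386.3, 423.5 and 830.3 (1.1 and 1.03). Amdhd2, which removes the acetyl group from GlcNAc-6-phosphate, had 213.1, 177.1 and 416.7 (0.97 and 1.02). In these 3 genes the 12 h signal stood far above both earlier arrays. Gnpda1, which turns glucosamine-6-phosphate into fructose-6-phosphate, had 208.2, 240.3 and 394.3 (0.92 and 1.22). Amdhd2 and Gnpda1 are successive steps of amino sugar breakdown. Members of the same list with the largest differences the other way were Pgm3 and Cmas. Pgm3, which makes GlcNAc-1-phosphate, gave 183.5 at 12 h against 228.5 at 0 h (-0.32 and -0.45), and Cmas, which activates sialic acid, 340.4 against 482.6 (-0.50 and -0.51). The list was thus split, with 7 genes higher and 7 lower by any amount in both summaries and medians of 0.02 and -0.05.

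Cholesterol synthesis genes, which SREBP2 controls, were mostly somewhat higher. Tm7sf2, a sterol C14-reductase, rose, with GCOS signals of 104.3, 94.4 and 193.4 at 0, 1 and 12 h (0.89 and 1.04). Of 18 measured genes of sterol synthesis, 1 rose and none fell, and 14 were higher and 2 lower by any amount, with medians of 0.27 and 0.27. Fdps, the farnesyl diphosphate synthase, gave 4586.9 at 12 h against 3731.1 at 0 h (0.30 and 0.45). Cyp51, the lanosterol demethylase, gave 1097.4 against 873.9 (0.33 and 0.40), and Dhcr7, the last enzyme of one branch, 414.8 against 323.9 (0.36 and 0.41). None of the 14 measured genes of sterol uptake and regulation passed the rule, and their medians were 0.06 and -0.02. None of 23 genes of lipogenesis, LXR response and lipid droplets passed it either, with medians of 0.07 and 0.12, though this list does not hold Plin4, a lipid droplet gene that rose and is described below. Autophagy genes, which TFE factors are also known to control, held no gene past 1.5-fold among 33 measured. Of these 13 were higher and 10 lower, with medians of 0.09 and -0.01. The 2 that came closest were Gabarap and Gabarapl1, ubiquitin-like proteins of the autophagosome membrane, with 0.50 and 0.50, and 0.36 and 0.40.

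**Figure D3:**
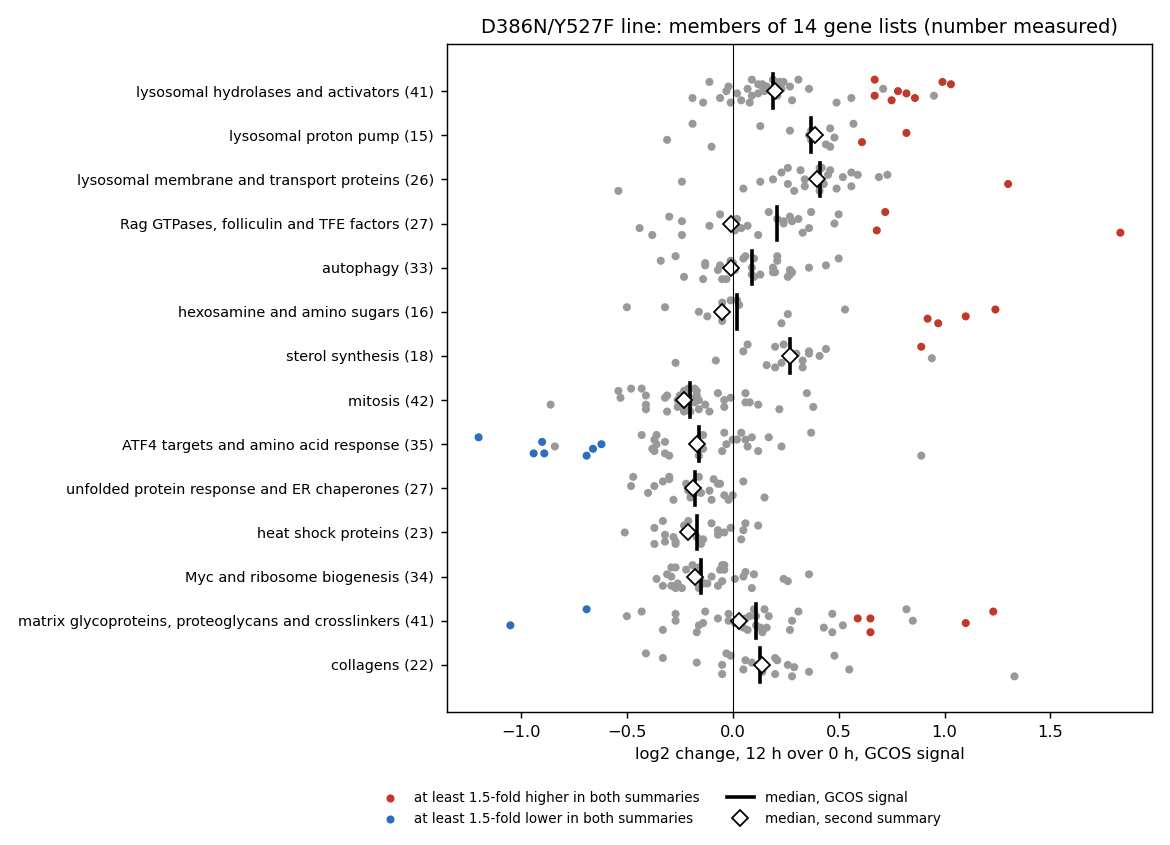
Log2 change of the GCOS signal at 12 h over 0 h for every measured gene of 14 lists in the D386N/Y527F line, 1 point a gene, with the number measured in brackets. Red points rose and blue points fell at least 1.5-fold in both summaries, black bars are the list medians of the GCOS signal and open diamonds those of the second summary. Red points lie in the lysosomal, Rag, amino sugar, sterol and matrix lists, and the blue points in the ATF4 and matrix lists.

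Genes of amino acid synthesis and uptake made up the largest group of list members that fell. In the list of ATF4 targets and the amino acid response, 7 of 35 measured genes fell, against 0.541% of all genes, and none rose. This list too was chosen with earlier results of these data known, so its share is no test. By any amount 23 were lower and 7 higher in both summaries, with medians of -0.16 and -0.17. Cth, the cystathionine gamma-lyase that makes cysteine, fell the most, with GCOS signals of 171.6, 123.6 and 74.7 at 0, 1 and 12 h and 171.5, 127.7 and 65.7 in the second summary (-1.20 and -1.38). Its 1 h signal lay between the other arrays in both summaries. Serine and glycine synthesis runs through Phgdh, Psat1, Psph and Shmt2. Psat1, the aminotransferase of that path, had GCOS signals of 1380.5, 1390.6 and 896.1 (-0.62 and -0.69), and Psph, its phosphatase, had 904.4, 778.9 and 470.4 (-0.94 and -0.70). Phgdh, the first enzyme, gave 1485.4 at 12 h against 1999.9 at 0 h (-0.43 and -0.43), short of the threshold, with all 4 of its probe sets lower. Shmt2, the mitochondrial serine hydroxymethyltransferase, had 732.5, 645.0 and 453.7 (-0.69 and -0.64), while 2 of its 3 other probe sets gave 0.63 and 0.24 in the GCOS signal, against -0.02 and -0.47 in the second summary, where all 4 were lower. Mthfd2, a mitochondrial folate enzyme, had 497.4, 439.1 and 266.4 (-0.90 and -1.03). The remaining members act on asparagine and on uptake. Asns, the asparagine synthetase, had 795.3, 780.9 and 501.6 (-0.66 and -0.85), and Slc7a5, the light chain of the LAT1 carrier of large neutral amino acids, had 622.2, 599.7 and 335.5 (-0.89 and -0.78). For Psat1, Asns and Slc7a5 the 1 h array stood with the 0 h array.

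Other members of the same list did not pass the rule. The transcription factor Atf5 gave 287.2 at 12 h against 357.8 at 0 h (-0.32 and -0.77), and Chac1, which degrades glutathione, 103.5 against 128.8 (-0.32 and -0.49). Atf4 itself gave -0.04 and -0.06 and Ddit3 gave 0.23 and 0.26, while the summaries were divided on Trib3 (-0.84 and 0.03). The 5 aminoacyl-tRNA synthetase genes of the list that were measured were divided, with -0.37 and -0.48 for Cars, -0.38 and -0.32 for Gars, -0.30 and -0.29 for Aars, 0.02 and -0.17 for Wars and 0.17 and 0.24 for Sars. The promoter of Asns is shown because it holds the letters TGATGNAA, a form of the C/EBP-ATF composite site, where N is any base. The letters were searched on both strands in the same 250 bases and were present for 1056 of 27025 genes (3.91%), for 8 of 29 matched genes of the ATF4 list (27.59%) and for 1 of 5 matched genes of those that fell. The stretch, from RefSeq on GRCm38.p6, runs from base -100 to base -1 at chr6:7693210-7693309 on the minus strand, with the match in capitals.
Asns: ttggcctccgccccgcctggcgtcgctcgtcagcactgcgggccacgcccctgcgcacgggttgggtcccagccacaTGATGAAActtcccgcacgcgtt

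**Figure D4:**
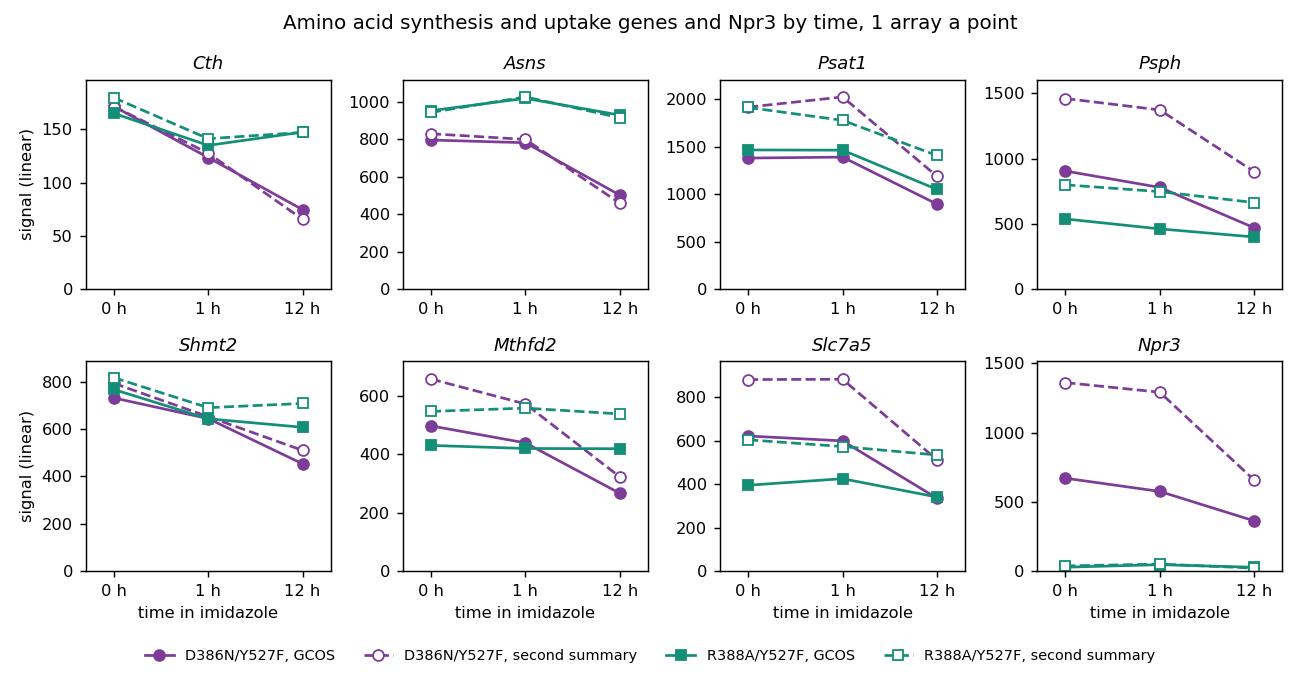
Signal on a linear scale at 0, 1 and 12 h for 7 genes of amino acid synthesis and uptake and for Npr3, with the times evenly spaced. Purple circles are D386N/Y527F and green squares R388A/Y527F, solid with filled points for the GCOS signal and dashed with open points for the second summary, and each point is 1 array. In the D386N/Y527F line the 12 h point is the lowest of the line in each panel, and Npr3 lies near the bottom of its panel throughout in R388A/Y527F.

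Stress and growth lists shifted a little downwards without single genes past the threshold. In the list of the unfolded protein response and ER chaperones none of 27 genes passed it, 23 were lower in both summaries and none higher, and the medians were -0.18 and -0.19. Manf, a factor secreted under ER stress, gave 1378.1 at 12 h against 1927.7 at 0 h (-0.48 and -0.49), and Hyou1, an ER chaperone, 348.9 against 481.9 (-0.47 and -0.39). Of 23 heat shock protein genes 18 were lower and 2 higher, with medians of -0.17 and -0.21, and Hspb8, a small heat shock protein, gave 598.9 against 854.1 (-0.51 and -0.61). Of 34 genes of the Myc programme and ribosome biogenesis 23 were lower and 3 higher, with medians of -0.15 and -0.18. Genes of mitosis went the same way, with 34 of 42 lower, 2 higher, none past the threshold, and medians of -0.20 and -0.23. Aurkb, encoding the Aurora B kinase, came nearest, with GCOS signals of 314.0, 275.8 and 173.1 at 0, 1 and 12 h and 423.0, 332.8 and 285.3 in the second summary (-0.86 and -0.57). Bub1, a kinase of the spindle checkpoint, gave 501.8 at 12 h against 724.0 at 0 h (-0.53 and -0.54), and Cdc20, which activates the anaphase-promoting complex, 1352.4 against 1792.5 (-0.41 and -0.41). Hmmr, 1 of the 2 mitosis genes that were higher, was read on a dim probe set (39.7 against 31.1). Of its 5 probe sets above the floor, 4 were lower in the GCOS signal. These medians are to be read beside that of all genes, 0.01 and -0.05.

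Energy metabolism gave few genes past the threshold. Of 28 measured genes in the list of glycolysis and HIF response, 15 were lower and 9 higher, with medians of -0.09 and -0.19. Pigq, counted among the 15 (-0.13 and -0.24), is a gene of GPI anchor synthesis and not of glycolysis. Pfkfb3, which makes the activator of phosphofructokinase, fell, with GCOS signals of 88.4, 58.5 and 42.9 at 0, 1 and 12 h (-1.04 and -0.76), though its other probe set gave 0.44. Ldha, the lactate dehydrogenase, gave 2048.4 at 12 h against 2777.4 at 0 h (-0.44 and -0.47). Of 35 genes of mitochondrial oxidative phosphorylation 25 were lower and 4 higher, with medians of -0.09 and -0.12. The one past the threshold, Cox5b, was higher on a dim probe set (32.6 against 20.3, below the floor at 0 h) while its 4 other probe sets above the floor were lower in both summaries. Of 29 genes of the NRF2 response, glutathione and thioredoxin 17 were lower and 9 higher, none past the threshold, with medians of -0.09 and -0.12. Slc40a1, the iron exporter ferroportin, rose among 10 iron genes, with 68.8, 75.4 and 156.6 (1.19 and 0.68). Slc30a1, which exports zinc, fell among 17 metallothionein and zinc transporter genes, with 67.0, 23.8 and 35.4 (-0.92 and -0.96). It was low at 1 h already, and its other probe set gave 0.52 in the GCOS signal.

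Matrix genes moved in both directions. Of 41 measured genes of matrix glycoproteins, proteoglycans and crosslinkers, 5 rose and 2 fell, and 22 were higher and 13 lower by any amount, with medians of 0.11 and 0.03. Fn1, encoding fibronectin, had GCOS signals of 1983.4, 2274.7 and 3107.1 at 0, 1 and 12 h (0.65 and 0.66). Lama4, a laminin chain of basement membranes, had 53.1, 16.1 and 124.2 (1.23 and 1.03), and Fbn2, encoding the microfibril protein fibrillin-2, had 42.4, 53.1 and 91.2 (1.1 and 1.17). For Lama4 and Fbn2 the signals were low on every array, while Fn1 was bright on all 3. The 1 h GCOS signal of Lama4 was under the floor, and its other probe set gave 0.07 in the GCOS signal. Dcn, encoding decorin, a small collagen-binding proteoglycan, had 572.3, 535.3 and 899.4 (0.65 and 0.75). Its other probe set was dim, with 7.8 at 12 h, under the floor, against 24.3 at 0 h (-0.25 and 0.0). Thbs2, encoding thrombospondin-2, gave 261.0 at 12 h against 173.2 at 0 h (0.59 and 0.62). The other probe sets of Thbs2 gave 0.07 and 0.50, and -0.03 and 0.23. Ccn5, a member of the CCN family of matricellular proteins, fell to 152.7 at 12 h, against 246.1 at 0 h (-0.69 and -0.68), and Ltbp2, a latent TGF-beta binding protein, to 29.8 against 61.7 (-1.05 and -0.64). Dcn and Fn1 are also fibroblast markers of the list above. Of 22 measured collagen genes 14 were higher and 2 lower, none past the threshold, with medians of 0.13 and 0.14. Among proteases and their inhibitors, Mmp14, the membrane metalloprotease MT1-MMP, rose, with 914.6, 946.9 and 1555.5 (0.77 and 0.87), and Timp3, a matrix-bound inhibitor of metalloproteases, fell, with 568.6, 604.7 and 354.3 (-0.68 and -0.70) and all 4 probe sets lower. No other member of that list passed the rule. Mmp2 gave 0.64 and 0.42 and Timp2 0.15 and 0.11, while Mmp9 gave -0.44 and -0.68 and Timp1 -0.23 and -0.36.

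Signalling and immune lists held single genes. None of the 15 measured ERK feedback genes passed the rule, with medians of 0.21 and 0.08, and none of 18 STAT3 targets and receptors did, with medians of 0.03 and -0.06. Of 33 immediate early genes 20 were lower and 3 higher, with medians of -0.08 and -0.16. Arc, an activity-induced cytoskeletal gene, fell, with GCOS signals of 60.6, 56.3 and 8.9 at 0, 1 and 12 h and 70.2, 67.6 and 42.0 in the second summary (-1.57 and -0.74). Its 12 h GCOS signal was under the floor. Of 31 interferon-stimulated genes 14 were higher and 7 lower, with medians of 0.16 and 0.04. Irf9, a subunit of the ISGF3 factor, rose to 225.9 at 12 h, against 146.7 at 0 h (0.62 and 0.81), and Isg20, an exonuclease, fell to 51.9 against 89.5 (-0.79 and -0.64). Stat2, another subunit of the same factor, gave 140.4 against 97.5 (0.53 and 0.81). Acta1, skeletal muscle actin, fell to 85.2 at 12 h, against 193.4 at 0 h (-1.18 and -0.74), but was lower still at 1 h, at 71.4. It was the only one of the muscle markers past the rule, and of 10 such markers 4 lay above the floor at 12 h. The 11 remaining lists of pathways, among them DNA replication, p53 targets, FOXO targets, the circadian clock, TGF-beta, actin and Rab genes, held no gene past the rule. Their medians lay between -0.08 and 0.17 in the GCOS signal and between -0.20 and 0.13 in the second summary.

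Of the 110 genes that rose, 82 were in none of the lists, and of the 60 that fell, 45 were in none. Plin4, a lipid droplet coat protein, had GCOS signals of 20.8, 59.1 and 108.6 at 0, 1 and 12 h and 16.4, 16.6 and 50.1 in the second summary (2.38 and 1.62). Ptgds, the lipocalin-type prostaglandin D synthase, had 57.6, 68.3 and 158.4, and 26.2, 31.0 and 220.4 (1.46 and 3.07). Its other probe set, brighter in the GCOS signal, gave 350.8 at 12 h against 123.0 at 0 h (1.51 and 0.72). Itm2a, a type II membrane protein, had 160.6, 173.8 and 424.8 (1.40 and 1.54). The summaries placed the 12 h array highest in all 3, though they differed widely on the size for Ptgds. Tcn2, the cobalamin carrier transcobalamin II, had 137.0, 157.2 and 337.4 (1.3 and 0.94), and all 5 of its probe sets were higher. Dpp7, a dipeptidyl peptidase of intracellular vesicles, had 50.2, 109.8 and 123.9 (1.3 and 0.93), most of the difference being present at 1 h. Capn6, a calpain without protease activity, gave 242.0 at 12 h against 118.8 at 0 h (1.03 and 1.1), and Qpct, which forms pyroglutamate at protein ends, 62.2 against 23.5 (1.40 and 1.02). Cemip, which takes part in hyaluronan breakdown, gave 73.0 against 38.2 (0.93 and 1.15), and Ank2, encoding ankyrin-B, 44.5 against a 0 h signal of 14.4 under the floor (at least 1.13, and 1.08). The other Cemip probe set gave 0.14 in the GCOS signal. The remaining genes of the 20 that led the higher side, Ccdc25 and Nckap5, gave 47.0 against 15.6, under the floor, and 51.7 against 27.2.

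On the lower side Stra6, the receptor that takes up retinol from its carrier, came first by the smaller of the 2 changes, with GCOS signals of 57.4, 63.0 and 23.6 at 0, 1 and 12 h (-1.28 and -1.26). Prkd1, encoding protein kinase D1, had 60.3, 43.6 and 25.6 (-1.24, and a bound of -1.22 because the 12 h array was under the floor of the second summary). Npr3, the clearance receptor for natriuretic peptides, had 670.4, 574.8 and 362.1 (-0.89 and -1.05), with all 3 probe sets lower. Both earlier arrays were above the 12 h array in each of these genes. Mycbp, a Myc-binding protein, gave 107.9 at 12 h against 212.3 at 0 h (-0.98 and -0.88), with all 4 probe sets lower, and Ivd, the isovaleryl-CoA dehydrogenase of leucine breakdown, 192.4 against 327.5 (-0.77 and -0.92). Usp2, a deubiquitinase, gave 71.7 against 130.9 (-0.87 and -0.81), and Paqr3, a Golgi membrane protein, 48.2 against 89.6 (-0.89 and -0.86). In the GCOS signal the other probe set gave -0.11 for Ivd and -0.16 for Usp2. Serpinb1a, an inhibitor of neutrophil elastase, gave 65.2 against 131.6 (-1.01 and -0.73), and Medag, a gene named for adipogenesis, 273.2 against 459.5 (-0.75 and -1.02). Among the other genes that led the lower side, Ica1, Lrrc17, Tnni3, Pced1b, Lrrc73 and Bnip1, the changes in the GCOS signal lay between -1.19 and -0.70, and Tnni3 and Lrrc73 had an array under the floor. Several probe sets above the floor existed for 65 of the genes that rose and 29 of those that fell, and all of them had the same direction for 49 and 20. An array at the floor entered 8 of the higher and 8 of the lower calls.

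The 1 h array of the line gives a further time for these genes. At 1 h over 0 h, 23 of 11129 genes (0.207%) were at least 1.5-fold higher and 22 (0.198%) lower in both summaries, fewer than at 12 h. The 12 h array was above both earlier arrays in both summaries for 102 of the 110 genes that rose, and below both for 55 of the 60 that fell. Only 5 of the genes in each direction were also past 1.5-fold at 1 h. The 1 h value was nearer to the 0 h than to the 12 h value for 73 of those that rose and 36 of those that fell. The median 1 h change of the genes that rose was 0.18 and 0.05, and that of the genes that fell -0.18 and -0.24. The 0 h array is shared by both comparisons, so these are values side by side and no test.

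The R388A/Y527F line, whose kinase imidazole does rescue, gives the same times on arrays not shared with the comparison above. There 48 of 11149 genes (0.431%) rose and 46 (0.413%) fell at 12 h. Of the genes that rose in D386N/Y527F, 102 were measured in R388A/Y527F, and 80 of these, or 78.4%, were higher there too in both summaries, against 34.1% of all genes. Of those that fell, 41 of 56, or 73.2%, were lower there, against 37.5% of all genes. The sizes were smaller in R388A/Y527F for genes chosen by their size in D386N/Y527F. The medians for the genes that rose were 0.80 and 0.76 in D386N/Y527F, against 0.39 and 0.44 in R388A/Y527F, and for those that fell -0.76 and -0.70, against -0.25 and -0.19. Past 1.5-fold in both lines were 21 of the higher genes and 2 of the lower ones. Uap1l1 gave 1.24 and 1.35 in D386N/Y527F and 1.12 and 1.21 in R388A/Y527F, and Tm7sf2 0.89 and 1.04, against 1.03 and 1.18. Rragd gave 1.83 and 2.23 in D386N/Y527F, against 1.00 and 1.01 in R388A/Y527F, and Tcn2 1.3 and 0.94, against 1.15 and 0.96. Slc30a1 was lower in both lines, by -0.92 and -0.96 in D386N/Y527F and -1.16 and -0.93 in R388A/Y527F.

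**Figure D5:**
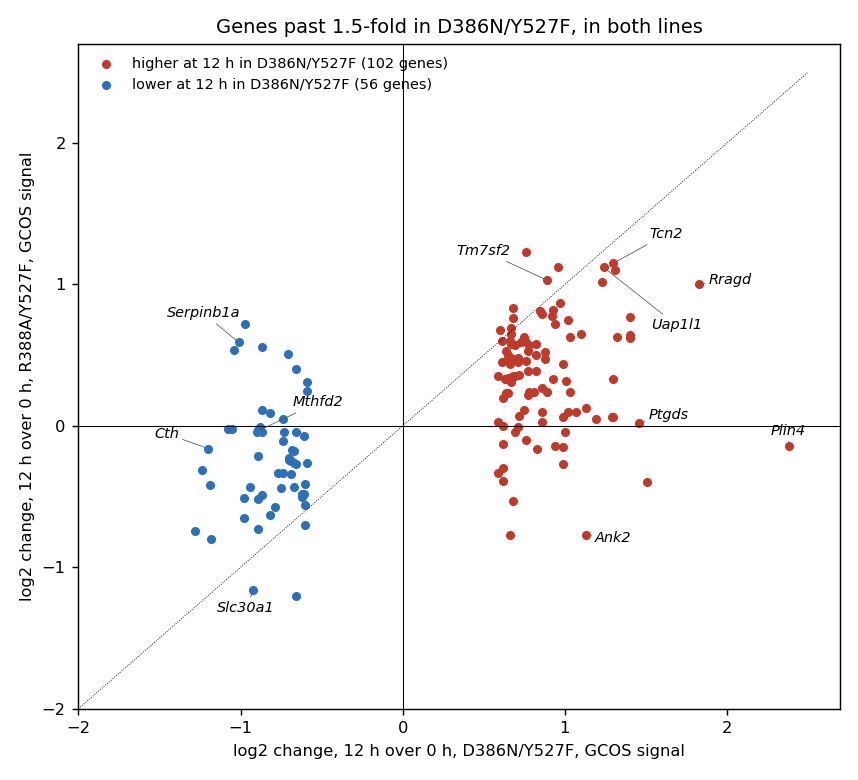
Log2 change of the GCOS signal at 12 h over 0 h in D386N/Y527F on the horizontal axis and in R388A/Y527F on the vertical axis, for the genes past 1.5-fold in both summaries in D386N/Y527F that were measured in both lines. Red points are 102 genes that rose and blue points 56 that fell in D386N/Y527F, and the dotted line marks equal change. Most red points lie above 0 on the vertical axis and below the dotted line, and Ank2 and Serpinb1a lie on the opposite side of 0.

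Across the lists, the lysosomal and sterol genes stood higher at 12 h in both lines. The medians of the proton pump were 0.37 and 0.39 in D386N/Y527F, against 0.42 and 0.45 in R388A/Y527F, those of the membrane and transport list 0.41 and 0.40, against 0.31 and 0.26, and those of the hydrolases 0.19 and 0.20, against 0.16 and 0.17. Sterol synthesis gave 0.27 and 0.27 in D386N/Y527F, against 0.48 and 0.49 in R388A/Y527F. The same 4 amino sugar genes were past 1.5-fold in both lines. Manba was unlike its list, with 0.99 and 0.98 in D386N/Y527F, against 0.06 and -0.01 in R388A/Y527F. The ATF4 list had medians of -0.16 and -0.17 in D386N/Y527F, against 0.05 and 0.05 in R388A/Y527F, and none of its members fell at least 1.5-fold in R388A/Y527F. Its member Ddit3 rose in R388A/Y527F (0.76 and 0.77), against 0.23 and 0.26 in D386N/Y527F. Atf4 itself gave 0.33 and 0.34 in R388A/Y527F, against -0.04 and -0.06 in D386N/Y527F. Cth gave -1.20 and -1.38 in D386N/Y527F, against -0.16 and -0.29 in R388A/Y527F, Mthfd2 -0.90 and -1.03, against -0.04 and -0.02, and Asns -0.66 and -0.85, against -0.04 and -0.04. Psat1 gave -0.62 and -0.69, against -0.48 and -0.44, Psph -0.94 and -0.70, against -0.43 and -0.27, Shmt2 -0.69 and -0.64, against -0.34 and -0.21, and Slc7a5 -0.89 and -0.78, against -0.21 and -0.18. All 7 genes of the list that fell in D386N/Y527F were thus also below 0 in both summaries in R388A/Y527F, by smaller amounts. With 1 array a group these differences between lines were not tested, and line, construct and array cannot be told apart.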

How the data were processed

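Each of the 6 groups gave 1 RNA sample and 1 Affymetrix mouse 430 2.0 array. The values the authors deposited are linear intensities. The authors made the first set of intensities with GCOS 1.3, per the submitters' processing notes, and each array had been scaled so that its mean after trimming 2% at each end was 150.0. A deposited workbook held the same values and a second set of intensities, whose method is not given in the sources used here. Of 45101 probe sets, 34945 had 1 symbol, 932 had several, 9160 had none and 64 were controls. Each of 18193 genes took 1 probe set, by the specificity of its suffix and then by mean signal. This can pick a dim probe set where another is brighter, as for Cox5b. It can also leave a gene unmeasured, as for Ctsl, which had another probe set above the floor. In each summary, signals under the 40th percentile were raised to it before log2, and a gene was measured where 1 of the 2 arrays lay above it. No test was run, since 1 array a group leaves no spread within the line. The comparisons are 12 h over 0 h within a line, and alternatives changed the summary, fold, normalization, floor, probe set rule and earlier array. Named are the 20 genes in each direction with the largest smaller change whose other probe sets had the same sign, list members past 1.5-fold, up to 8 members of a list by size, any list member 1.5-fold against its list, Src, Yes1 and Fyn, and genes whose promoters are shown. The genes and the 44 lists were chosen with earlier results of these data known. The steps were tested on simulated data, with noise drawn separately for the 2 summaries. The real summaries share their arrays, so this did not measure how often the rule calls a gene falsely here. Python 3.11.15, numpy 2.4.6 and pandas 2.3.3 were used.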

Additional observations from a re-analysis of the deposited data

Results flagged for a closer look

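Ank2 and Serpinb1a differed in direction between the lines at 12 h. Ank2 rose in D386N/Y527F and fell in R388A/Y527F, with a difference of log2 changes, D386N/Y527F minus R388A/Y527F, of 1.89 in the GCOS signal. It was the only gene past 1.5-fold in opposite directions in both lines. Serpinb1a fell in D386N/Y527F and gave 0.59 and 0.28 in R388A/Y527F, a difference of -1.61, and its 0 h GCOS signal in R388A/Y527F, 7.4, was under the floor. Medians of 5 lists also differed in sign between the lines in the GCOS signal. The difference was 0.22 for collagens, 0.22 for matrix glycoproteins, proteoglycans and crosslinkers, 0.12 for autophagy, -0.21 for ATF4 targets and the amino acid response and -0.21 for the Myc programme and ribosome biogenesis. With 1 array a group, none of these differences was tested.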

How the results depend on the processing

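The counts of 110 higher and 60 lower genes depend on the size rule. The second summary alone gave 167 and 208, the GCOS signal alone 1044 and 452, and 2-fold in both summaries 14 and 3. A pseudocount of 20 in place of the floor gave 72 and 26, and a floor at the 60th percentile 75 and 39. Quantile normalization gave 109 and 64, of which 97 and 50 were among the genes above, and the mean of all probe sets 74 and 46. When 12 h was set against 1 h, 98 were higher and 48 lower, of which 54 and 20 were among the genes above. Among 14 list medians, that of Rag GTPases, folliculin and TFE factors was -0.01 in the second summary and 0.05 over the 1 h array, and that of collagens -0.03 over the 1 h array. The other 12 kept their values within 0.15 under the 6 alternatives run for them, with a change of sign in the second summary for autophagy (-0.01) and amino sugars (-0.05), and all 14 stayed within it without members at the floor, an alternative chosen after seeing the data. For single genes the alternatives were run on 69 genes past 1.5-fold, the leading genes of each direction and the list members that passed. Over the 1 h array, 4 of these 69 changed direction, Acta1 to 0.25, Ctsf to -0.01, Slc30a1 to 0.57 and Tnni3 to 0.58. Named genes outside the 69 were not counted. Some of those also changed sign in the GCOS signal over the 1 h array, such as Src (0.22 to -0.1) and Ddit3 (0.23 to -0.03). Of the 69 genes, 19 moved by over 0.3 in that setting without a change of direction, 16 with the mean of all probe sets, 14 in the second summary, 12 with the higher floor (of 62 with a value there), 9 with the pseudocount and 0 with quantile normalization. The cause was not tested. No paired analysis was possible because the 12 h and 0 h groups of the line share only 1 replicate number. A fit over both lines, which would give the change common to them, was not run. Signals near the floor limit what the arrays could show for dim genes.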

Other observations

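Some genes of endosomes, lysosomes and membrane traffic in none of the lists passed 1.5-fold. They were picked here after their values were seen, and how many comparable genes did not pass was not counted. Grn, encoding progranulin, a lysosomal glycoprotein, gave 1802.7 at 12 h against 978.1 at 0 h in the GCOS signal (log2 change 0.88, and 0.92 in the second summary), with all 3 probe sets higher. Mfsd1, a lysosomal transporter, gave 1446.4 against 884.8 (0.71 and 0.80), and Stx3, a syntaxin of membrane fusion, 275.9 against 152.9 (0.85 and 0.84). Wdr81 gave 610.5 against 359.0 (0.77 and 0.76), Washc2, a subunit of the WASH complex of endosomes, 446.8 against 279.3 (0.68 and 0.95), and Tom1, an endosomal adaptor, 600.6 against 379.4 (0.66 and 0.75). Lrp1, an endocytic receptor, gave 595.2 against 387.5 (0.62 and 0.65) in D386N/Y527F, and -0.39 and -0.40 in R388A/Y527F. Others fell, among them Borcs7, a subunit of the BORC complex of lysosome positioning, with 43.7 against 66.4 (-0.60 and -0.68), and Clcn3, an endosomal chloride and proton exchanger, with 145.4 against 221.1 (-0.60 and -0.68), each with probe sets of both directions.

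Genes of branched-chain amino acid breakdown were listed after Ivd had been seen among the genes that fell. Of 21 genes measured, 3 fell and none rose, against 0.541% of all genes that fell. Ivd, which prompted the list, is 1 of the 3, so the count is no test. By any amount in both summaries 11 were lower and 3 higher, against 41.0% lower and 31.7% higher of all genes. The medians were -0.19 and -0.17 in D386N/Y527F, against -0.17 and -0.11 in R388A/Y527F. Bckdhb, a subunit of the branched-chain ketoacid dehydrogenase, gave 125.3 at 12 h against 192.4 at 0 h (-0.62 and -0.76), and Pcca, a subunit of propionyl-CoA carboxylase, 175.7 against 266.2 (-0.60 and -0.70), although 1 of its probe sets was higher. Malat1, a nuclear long noncoding RNA, rose in both lines, by 0.76 and 0.67 in D386N/Y527F and 1.23 and 1.13 in R388A/Y527F, with all 7 probe sets higher in D386N/Y527F.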
